A study of Sus scrofa with 6 samples.

Results

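The genes described here encode matrix proteins of connective tissue and an enzyme that cross-links them: *COL1A1*, *COL14A1* and *COL8A1* (collagens), *ELN* (elastin), *LOX* (lysyl oxidase), *ASPN* (asporin) and *TNXB* (tenascin-X). They were grouped as genes of the dermis, but the tissue was whole ear and the cells that expressed each gene were not determined. The genes were found as the rows of the deposited tables whose Ensembl transcript carries 1 of these 7 names in the study's list of differentially expressed genes. This gave 9 transcripts, 3 of them for *TNXB*, of the 22204 with a read in any piglet. Ear tissue of new born piglets of the Sutai breed, which descends from Duroc and Meishan pigs, was sequenced in 6 animals, 1 library each. The 3 wild-type piglets (genotype qq at the locus) are numbered 1 to 3 for 6161ST, 6165ST and 6407, and the 3 CNV/CNV piglets (genotype QQ, homozygous for a duplication at *MSRB3*) are numbered 1 to 3 for 6185STQ, 6415 and 6434. The labels name no treatment for either group, and neither litter nor sex. The study asked which genes differ between the large-eared CNV/CNV and the small-eared wild-type animals, and its list holds genes that differed between these same piglets. The 7 names were thus chosen by the difference in RNA level between the genotypes in these libraries, and the genotype values below are a description without a test.

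In the dermis, fibroblasts secrete type I collagen, which forms thick fibrils that bear tension, and elastin, which forms fibres that recoil. Lysyl oxidase acts on lysines of both proteins and so starts the cross-links that make the fibres insoluble. Type XIV collagen, tenascin-X and small leucine-rich proteoglycans such as asporin sit on or between the fibrils and affect their spacing, while type VIII collagen forms networks in basement membranes and vessel walls.

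The libraries held from 39.3 M to 44.2 M uniquely mapped reads, and levels are given as RPKM, the reads of a transcript scaled to its length and to the total of the library. All 9 transcripts were above 0 in all 6 piglets, and all 9 passed the filter on low counts, which kept 16645 transcripts. The lowest count was 59 reads, for the *TNXB* transcript ENSSSCT00000025531 in wild-type piglet 1, with an exact Poisson interval (95%) from 44.9 to 76.1 that covers counting error only. In a piece of whole ear, fewer cells of a type and less RNA per cell cannot be told apart.

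*COL1A1* (ENSSSCT00000019137) encodes a chain of type I collagen and had the highest level of the 7 genes. Its level was 866, 1042 and 5336 RPKM in wild-type piglets 1, 2 and 3, and 1455, 8405 and 5792 RPKM in CNV/CNV piglets 1, 2 and 3. The values thus formed a low set of 3, made of wild-type piglets 1 and 2 with CNV/CNV piglet 1, and a high set of 3, and the genotype groups overlapped. The transcript ranked from place 112 in wild-type piglet 1 to place 11 in CNV/CNV piglet 2 by RPKM, where the tables list from 19819 to 20136 transcripts. It took from 0.0789% to 0.766% of all reads of a library. The transcript model is only 911 bases long, so this level stands for a fragment of the gene. No position on Sscrofa11.1 is given for it.

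*ELN* (ENSSSCT00000032354, chromosome 3 from 11214424 to 11244894 on Sscrofa11.1) had 143, 160 and 455 RPKM in wild-type piglets 1, 2 and 3, and 228, 806 and 944 RPKM in CNV/CNV piglets 1, 2 and 3. *LOX* (ENSSSCT00000015550, chromosome 2 from 125591789 to 125607594), whose enzyme acts on both elastin and collagen, had 22.5, 13.2 and 144 RPKM in the wild-type and 22.9, 221 and 185 RPKM in the CNV/CNV piglets, in the same order. Both genes repeated the low and the high set of *COL1A1*. The gap between the sets was wide for *LOX*, where wild-type piglet 3 exceeded CNV/CNV piglet 1 by a factor of 6.28, and narrower for *ELN*, where the factor was 1.99.

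*ASPN* (ENSSSCT00000008845, chromosome 3 from 42163141 to 42192993), the gene of a small leucine-rich proteoglycan that binds collagen, had 33.6, 28.0 and 83.9 RPKM in wild-type piglets 1, 2 and 3, and 37.6, 123 and 158 RPKM in CNV/CNV piglets 1, 2 and 3. *COL14A1* (ENSSSCT00000035287, chromosome 4 from 18690198 to 19180122), whose collagen binds to the surface of fibrils, had 37.4, 48.7 and 83.9 RPKM in the wild-type and 71.8, 101 and 119 RPKM in the CNV/CNV piglets. The same 3 piglets were lowest for both genes, but for *COL14A1* CNV/CNV piglet 1 lay close to wild-type piglet 3, at a factor of 1.17.

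*TNXB*, whose loss in humans causes a form of Ehlers-Danlos syndrome, had 3 transcripts. ENSSSCT00000027572 had 2.10, 2.54 and 17.9 RPKM in wild-type piglets 1, 2 and 3, and 2.76, 26.8 and 19.1 RPKM in CNV/CNV piglets 1, 2 and 3. ENSSSCT00000034199 had 1.51, 2.32 and 12.8 RPKM in the wild-type and 2.87, 17.8 and 14.1 RPKM in the CNV/CNV piglets. Both lie within chromosome 7 from 24089073 to 24159027 on Sscrofa11.1. ENSSSCT00000025531, for which no position on that build is given, had 0.330, 0.539 and 2.63 RPKM in the wild-type and 1.17, 4.70 and 4.39 RPKM in the CNV/CNV piglets. All 3 transcripts again had the 3 low and the 3 high piglets, in the same order from lowest to highest. Their levels per length differed within a library, with ENSSSCT00000027572 from 2.36 to 6.83 times as high as ENSSSCT00000025531. A further transcript that the list names TN-X (ENSSSCT00000032104) was far lower, from 0.0442 to 0.572 RPKM. Whether it belongs to a gene apart from *TNXB* was not tested. The counts hold only uniquely mapped reads, so reads shared by near-identical copies may be missing from them. Reads of overlapping genes cannot be told apart in these counts, so the *TNXB* values are uncertain to that degree.

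*COL8A1* (ENSSSCT00000013101, chromosome 13 from 159216142 to 159374718), a gene of type VIII collagen, had a different order. Its level was 4.26, 0.996 and 26.0 RPKM in wild-type piglets 1, 2 and 3, and 18.9, 31.1 and 13.9 RPKM in CNV/CNV piglets 1, 2 and 3. CNV/CNV piglet 1, low for the other transcripts, was here above CNV/CNV piglet 3, and wild-type piglet 2 stood alone at the bottom. *COL8A1* also had the widest range of the 9, with 31.2 times more in the highest than in the lowest piglet, against 3.18 times for *COL14A1*, 5.63 for *ASPN*, 6.58 for *ELN*, 9.71 for *COL1A1*, 16.7 for *LOX* and from 11.8 to 14.2 for the *TNXB* transcripts.

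**Figure D1:**
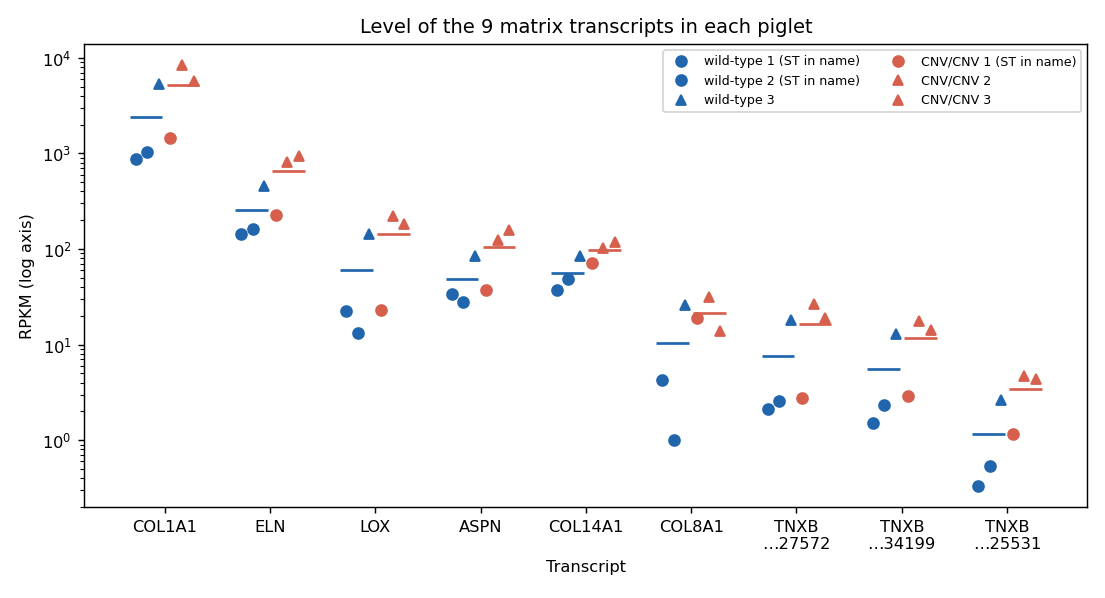
Levels of the 9 transcripts (RPKM, log axis) by piglet, blue for wild-type and red for CNV/CNV, circles for piglets with the letters ST in their names, triangles for the others and a bar at each genotype mean (n = 3). The circles lie below the triangles in 8 of the 9 transcripts, and for COL8A1 the circle of CNV/CNV piglet 1 (18.9 RPKM) lies above the triangle of CNV/CNV piglet 3 (13.9 RPKM).

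Between the genotypes, all 9 transcripts had a higher mean in the CNV/CNV piglets, which is what they were listed for. For *COL1A1* the wild-type mean was 2415 ± 2532 RPKM (SD, n = 3) and the CNV/CNV mean 5217 ± 3510 RPKM (SD, n = 3), so that the SD was of the size of the mean. The log2 difference from edgeR, CNV/CNV minus wild-type, was 1.20 for *COL1A1* (standard error 0.83), 1.48 for *ELN* (0.61), 1.34 for *LOX* (1.01), 1.23 for *ASPN* (0.58), 0.89 for *COL14A1* (0.34) and 1.10 for *COL8A1* (0.95). It ran from 1.15 to 1.64 for the *TNXB* transcripts. The median over the 9 was 1.20, beside 0.00 over all transcripts tested. The genotype groups did not overlap for 0 of the 9 transcripts, beside 14.2% of all transcripts tested (2.11% with CNV/CNV higher), and in all 9 wild-type piglet 3 was above CNV/CNV piglet 1. Without wild-type piglet 3 the median log2 difference was 2.76. Without wild-type piglets 1 and 2, which leaves 1 wild-type piglet, the values were 0.02 for *COL1A1*, 0.05 for *LOX*, -0.24 for *COL8A1* and -0.09 for the *TNXB* transcripts ENSSSCT00000027572 and ENSSSCT00000034199, and the highest was 0.59 for *ELN*.

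Piglets of the same genotype differed widely in these genes. The biological coefficient of variation, the relative SD between piglets of a genotype that edgeR estimates beyond counting error, was 0.67 for *COL1A1*, 0.51 for *ELN*, 0.79 for *LOX*, 0.49 for *ASPN*, 0.76 for *COL8A1* and from 0.66 to 0.78 for *TNXB*, where the median of all transcripts was 0.23. In 8 of the 9 transcripts it was at or above the 95th percentile of all transcripts tested, up to the 99.4th for *LOX*. *COL14A1* was the exception, with 0.30 at the 75.3rd percentile. All of these are levels of spread within the genotypes and not differences between them.

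The low and high sets followed the names of the piglets. Wild-type piglets 1 and 2 and CNV/CNV piglet 1 have the letters ST in their names, and the other 3 do not. The labels do not say what the letters mean. The numbers in the names fall into the same sets, 6161ST, 6165ST and 6185STQ against 6407, 6415 and 6434. A difference by ST therefore cannot be told apart from a difference by piglet number. In 8 of the 9 transcripts every ST piglet was below every other piglet, beside 9.5% of all transcripts tested (25.8% counting both directions). When a second term for ST was fitted beside genotype over all transcripts, 7 of the 9 passed an adjusted p of 0.05 by edgeR's quasi-likelihood test, all lower in the ST piglets, beside 1.06% of all transcripts tested (1.14% counting both directions). Among the 232 tested transcripts of the study's list other than these 9, the share lower in the ST piglets at an adjusted p under 0.05 was 3.02% by edgeR. At an unadjusted p under 0.05 8 of the 9 were called, beside 17.3% of all transcripts tested. All 3 *TNXB* transcripts are in each count out of the 9, so these are counts of transcripts and not of separate genes. The 2 splits of the piglets put 4 of the 6 on matching sides, so the choice of the genes by genotype is not independent of this one, and the split had been seen in earlier results of these data.

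*LOX* differed most by ST. Its mean was 19.5 ± 5.48 RPKM (SD, n = 3) in the ST piglets and 183 ± 38.7 RPKM (SD, n = 3) in the other piglets, a log2 difference of -3.13 (standard error 0.22, adjusted p = 0.00286 from edgeR), or 8.76-fold lower. *COL1A1* had 1121 ± 303 and 6511 ± 1656 RPKM, with -2.44 (standard error 0.21, adjusted p = 0.00471 from edgeR). For *ELN* the means were 177 ± 44.9 and 735 ± 252 RPKM, with -1.81 (standard error 0.15, adjusted p = 0.00471 from edgeR). Among these 3 genes the log2 difference was thus largest for the cross-linking enzyme and smallest for elastin, and the differences among genes were not tested. *ASPN* had -1.73 (standard error 0.17, adjusted p = 0.00938 from edgeR). The *TNXB* transcripts had -3.06, -2.66 and -2.32 for ENSSSCT00000027572, ENSSSCT00000034199 and ENSSSCT00000025531 (adjusted p = 0.00181, 0.00366 and 0.0101 from edgeR). *COL14A1*, with -0.84 (standard error 0.17, adjusted p = 0.0740 from edgeR), and *COL8A1*, with -1.80 (standard error 0.78, adjusted p = 0.294 from edgeR), did not pass. By DESeq2, *COL14A1* passed too (adjusted p = 0.000747), which made 8 of 9, all lower in the ST piglets. Of all transcripts tested, 4.7% passed in that direction by DESeq2 (1119 transcripts counting both directions). Without wild-type piglet 3, the only wild-type piglet with no ST in its name, 0 of the 9 passed in edgeR, beside 1 of all transcripts. The log2 differences were still from -3.16 for *LOX* to -0.26 for *COL8A1*, and 8 of them kept an unadjusted p under 0.05.

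**Figure D2:**
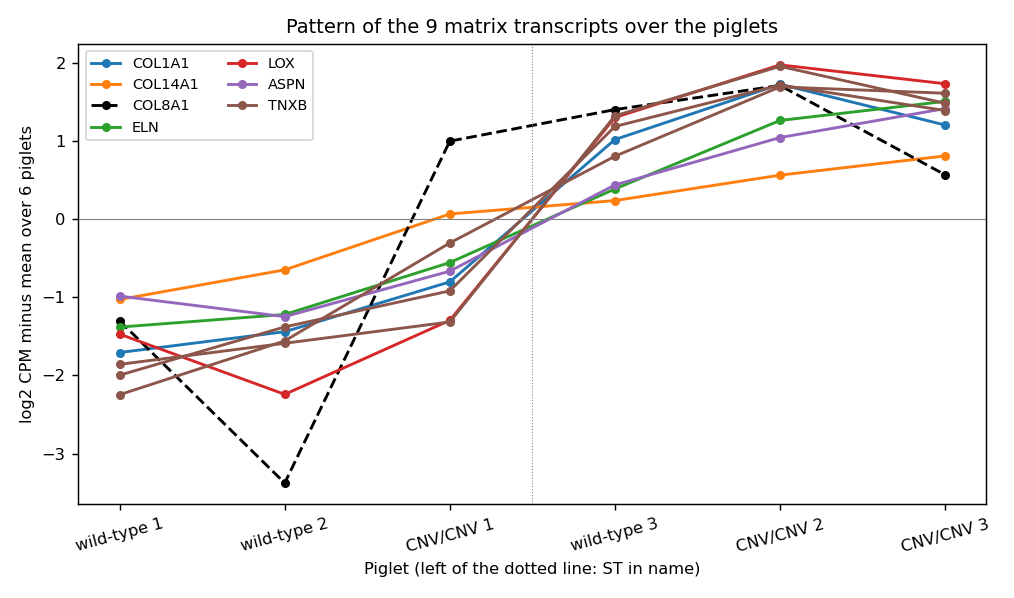
Pattern of the 9 transcripts as log2 CPM (reads scaled to the library total after TMM, prior count 2) minus the mean of the transcript over the 6 piglets, with the ST piglets left of the dotted line and the 3 TNXB transcripts in 1 colour. All lines but that of COL8A1 (dashed) rise from the ST piglets to the others, and COL8A1 is already high in CNV/CNV piglet 1.

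With ST in the fit, the biological coefficient of variation fell to 0.19 for *COL1A1*, 0.16 for *ELN*, 0.20 for *LOX*, 0.17 for *ASPN* and 0.18 for *COL14A1*, and was from 0.17 to 0.22 for *TNXB*. These 8 transcripts were then between the 24.4th and the 61.6th percentile of all transcripts, whose median was 0.20. *COL8A1* stayed at 0.61, the 99.0th percentile. The genotype differences in this fit were smaller than with genotype alone for 8 of the 9 transcripts, such as 0.62 for *COL1A1* (standard error 0.20), 0.87 for *ELN* (0.15) and 0.53 for *LOX* (0.21), and larger for *COL8A1*, at 1.39 (0.77). Within the ST piglets, CNV/CNV minus wild-type was 0.77 for *COL1A1*, 0.74 for *ELN* and 0.56 for *LOX* on the log2 CPM scale, and within the others 0.45, 0.998 and 0.55. For *COL8A1* it was 3.34 within the ST piglets and -0.26 within the others. That difference of differences was 3.15 in the edgeR fit with an interaction term (standard error 1.04, adjusted p = 0.9996 from edgeR). This term rests on 2 arms of 1 piglet each, CNV/CNV piglet 1 and wild-type piglet 3, which are assumed to vary like the others, so the missing calls say little. No interaction passed for any of the 16645 transcripts in edgeR (0 called), while 3.98% of them, *COL8A1* included, had an unadjusted p under 0.05.

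**Figure D3:**
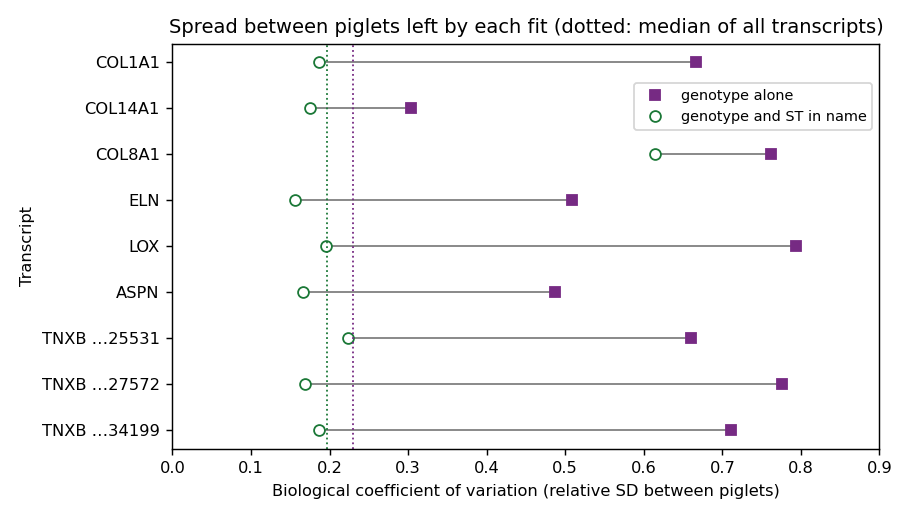
Biological coefficient of variation of the 9 transcripts in the fit with genotype alone (squares) and with genotype and ST (open circles), with dotted lines at the median of all transcripts in each fit (0.23 and 0.20). The circle lies near the median for 8 transcripts, while COL8A1 stays at 0.61.

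Set against *COL1A1* in the same library, several of the genes varied less than on their own. The RPKM of the *TNXB* transcript ENSSSCT00000034199 was from 0.174% to 0.243% of that of *COL1A1*, a range of 1.40 times where its own level ranged over 11.8 times. *ELN* was from 8.53% to 16.6% of the level of *COL1A1* and *LOX* from 1.27% to 3.19%, ranges of 1.94 and 2.52 times. *COL14A1* was from 1.21% to 4.93%, a range of 4.09 times that exceeded the range of its own level, and it was a larger share of *COL1A1* in the 3 ST piglets than in the others. *COL8A1* ranged over 13.6 times relative to *COL1A1* and was highest in CNV/CNV piglet 1.

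The pattern over the piglets was compared between transcripts by the root mean square difference of their log2 CPM after removal of each transcript's mean, over 6 piglets, where 0 means the same pattern. The genes of smallest difference were sought among the named transcripts, all of which the study listed on the same piglets. *COL1A1* was nearest to the *TNXB* transcript ENSSSCT00000034199 (0.17), and *ELN* to *ASPN* (0.20). *ELN* was next nearest to *SVEP1* (0.20), a gene of a large matrix protein that fibroblasts secrete, and to *SOST* (0.23), which encodes an inhibitor of Wnt signalling. *ASPN* was near *LAMA2* (0.22), a laminin gene, and *SVEP1* (0.24), and *COL1A1* near TN-X (0.24) and *SVEP1* (0.28). *LOX* had no named neighbour as near, with *IGSF10* at 0.56 and *PI15* at 0.62, and its nearest among the 9 was the *TNXB* transcript ENSSSCT00000027572 (0.33). The neighbours of *COL14A1* were *ADGRG2*, an adhesion receptor gene, at 0.24 and *CTGF*, a matrix growth factor gene, at 0.26, in a crowded part of the data with 246 transcripts within 0.3. *TNXB* transcripts had TN-X (0.23 for ENSSSCT00000025531 and 0.28 for ENSSSCT00000034199) and *IGSF10* (0.40 for ENSSSCT00000027572) as nearest named transcripts, with *TBC1D8B* (0.44), *SVEP1* (0.41) and TN-X (0.48) next.

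*COL8A1* had its nearest neighbours elsewhere. The smallest differences of all 16644 other transcripts tested were those of *HAPLN1* (0.20), which encodes the link protein of cartilage, and *ACAN* (0.21), which encodes aggrecan, the main cartilage proteoglycan. *HAPLN1* had 6.50, 1.32 and 31.5 RPKM in wild-type piglets 1, 2 and 3, and 23.7, 50.8 and 24.6 RPKM in CNV/CNV piglets 1, 2 and 3. *ACAN* had 8.08, 2.43 and 43.6 RPKM in the wild-type and 32.3, 65.2 and 33.1 RPKM in the CNV/CNV piglets. Like *COL8A1*, both were lowest in wild-type piglet 2 and highest in CNV/CNV piglet 2. The nearest of the other 8 matrix transcripts was at 1.11.

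Other matrix genes of the lists used had few names in the tables, because names came only from the study's list of genes that differed between the genotypes. Of the other collagens only *COL2A1* and *COL9A2* were named, both of cartilage, and neither of the 2 passed the test for ST in edgeR or DESeq2 (1 had an unadjusted p under 0.05 in edgeR), with log2 differences of -2.79 for *COL2A1* and -2.27 for *COL9A2* (standard errors 1.45 and 0.90), on either side of the median of the 9 matrix transcripts. None of the other elastic fibre genes or of the other genes of collagen processing and cross-linking was named, so *ELN* and *LOX* stand alone for these steps here. Of 3 further small leucine-rich proteoglycan and tenascin transcripts (*CHAD*, *CHADL* and TN-X), all 3 had a lower value in the ST piglets. Only TN-X passed, with a log2 difference of -2.22 (adjusted p = 0.0339 from edgeR). It rested on 8 to 110 reads per piglet and may not be a gene apart from *TNXB*. *CHAD* had -1.91 and *CHADL* -0.84 (adjusted p = 0.110 and 0.369 from edgeR). Of 12 fibroblast and loose connective tissue genes, 10 had a lower value in the ST piglets and the others a higher value. At an unadjusted p under 0.05 10 were called by edgeR, beside 17.3% of all transcripts tested. In DESeq2 9 passed, beside 1119 of the 16645 tested. At an adjusted p under 0.05 by edgeR, 1.06% of all transcripts tested were lower in the ST piglets. Of the 12, 5 were lower and 0 higher by that test. These were *SVEP1* (-1.92, adjusted p = 0.00181 from edgeR), *ANGPTL7* (-3.58, 0.00938), an angiopoietin-like gene named after its value was seen, *PI15* (-2.28, 0.0168), a peptidase inhibitor gene, *IGSF10* (-2.62, 0.0184), of the immunoglobulin family, and *LAMA2* (-2.03, 0.0225). *PI16*, the most abundant of the 12, had 59.5, 63.2 and 108 RPKM in the wild-type and 62.6, 290.3 and 329 RPKM in the CNV/CNV piglets, with a log2 difference by ST of -1.61 (adjusted p = 0.0638 from edgeR). Next in abundance were *CTGF*, from 27.6 to 111 RPKM, and *SCARA5*, from 16.6 to 114 RPKM, with log2 differences by ST of -0.58 and -1.26 (adjusted p = 0.268 and 0.159 from edgeR). The median log2 difference by ST was -1.68 for the 12 and -2.32 for the 9 matrix transcripts, beside 0.01 for all transcripts tested.

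Markers of other cell types moved with the piglets as well. Their names came only from the study's list of genes that differed between the genotypes. The genotype values below are thus a description without a test. For the counts by ST below, 17.3% of all transcripts tested had an unadjusted p under 0.05 in edgeR. At an adjusted p under 0.05, 1.14% passed in edgeR and 1119 of the 16645 tested in DESeq2. All 12 cartilage markers were found, none at 0 in any piglet, with a summed level from 13.0 to 715 RPKM in wild-type and from 510 to 1077 RPKM in CNV/CNV piglets. The highest of them were *COL2A1* (from 0.483 to 542 RPKM), *CYTL1* (from 0.243 to 217 RPKM), *COL9A2* (from 1.55 to 141 RPKM) and *CHAD* (from 4.99 to 113 RPKM). Of the 12, 0 passed the test for ST in edgeR and 0 in DESeq2, while 9 had an unadjusted p under 0.05 in edgeR. All 12 had a lower value in the ST piglets, with a median log2 difference of -2.14, near the -2.32 of the 9 matrix transcripts. Their sum was 510 RPKM in CNV/CNV piglet 1 and 715 RPKM in wild-type piglet 3, and that of the 9 matrix transcripts was 1842 and 6162 RPKM in these piglets. Hair markers (12 of 13 names) summed to 1327 to 5030 RPKM in wild-type and 903 to 1449 RPKM in CNV/CNV piglets, and were highest in wild-type piglet 2. The most abundant were *KRT31*, *KRT33B*, *KRT81* and *KRT85*, all highest in that piglet, and 1 of the 12, *KRT84*, named after its value was seen, was higher in the ST piglets (3.41, adjusted p = 0.0334 from edgeR), with its highest level, 84.8 RPKM, in CNV/CNV piglet 1. Of the 12 hair markers 11 had a higher value in the ST piglets, 6 had an unadjusted p under 0.05 in edgeR and 5 passed in DESeq2, with a median log2 difference of 0.78. Pigment cell markers (8 of 8, led by *TYRP1*, *DCT*, *MLANA* and *GPR143*) summed to 160 to 294 RPKM in wild-type and 88.2 to 160 RPKM in CNV/CNV piglets, with 0 past the test for ST in edgeR and in DESeq2 and 1 at an unadjusted p under 0.05. Muscle markers (*MYH7*, *PRKAG3* and *FABP3*) summed to 45.9 to 145 RPKM in wild-type and 11.3 to 48.2 RPKM in CNV/CNV piglets. Nearly all of each sum came from *FABP3*, whose transcripts had 85.4 and 56.9 RPKM in wild-type piglet 2. *MYH7* was only from 0.544 to 2.27 RPKM over the piglets. *PRKAG3* was from 0.0164 to 0.0538 RPKM in the wild-type and 0 in the 3 CNV/CNV piglets, and failed the filter on low counts. Of the 3 tested muscle transcripts, 0 passed the test for ST in edgeR and in DESeq2 (1 at an unadjusted p under 0.05). *ALAS2*, of red blood cells, ranged from 0.175 to 1.15 RPKM. The part of these cell types in the levels of the matrix genes was not tested.

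**Figure D4:**
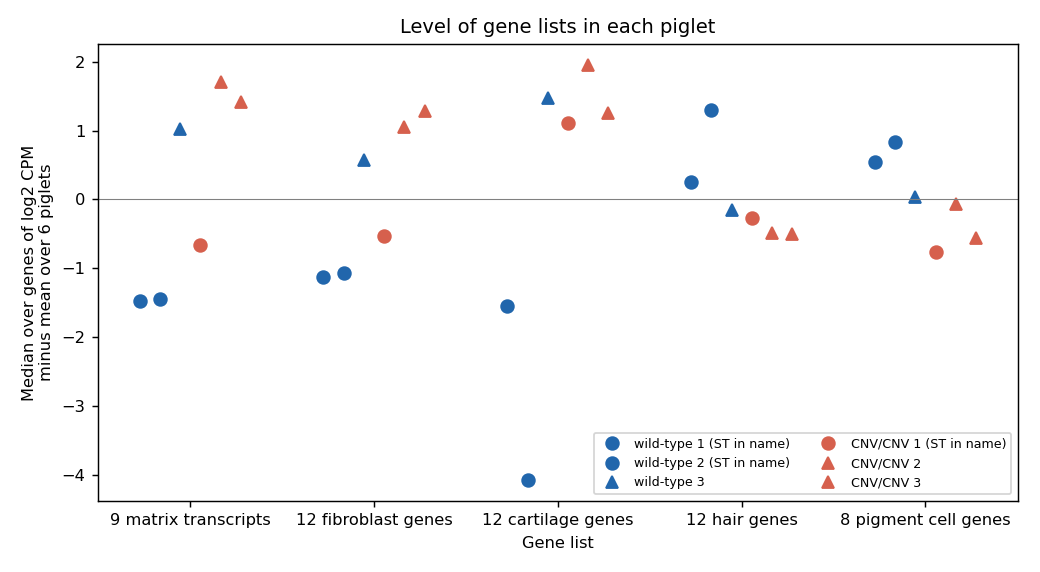
Level of 5 gene lists by piglet, taken as the median, across a list, of each gene's log2 CPM minus its mean over the 6 piglets, with colours for genotype and circles for ST in the name. CNV/CNV piglet 1 lies at -0.66 for the 9 matrix transcripts and -0.53 for the fibroblast genes but at 1.11 for the cartilage genes.

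The tables also give the share of each transcript's length that reads covered, which tells how far a level rests on the whole model. Coverage was from 99.3% to 99.9% for *ASPN*, 96.3% to 99.9% for *LOX*, 90.9% to 99.8% for *COL8A1*, 96.4% to 98.2% for *COL1A1* and 86.2% to 98.0% for *ELN*. *COL14A1* was covered over only 40.4% to 47.4% of its 5795 bases, although it had from 8896 to 29340 reads. Of the transcripts with at least as many reads per base in a library, from 0.0662% to 0.347% had a lower coverage, and the median coverage of such transcripts was from 98.3% to 99.1%. Its RPKM, which divides by the full length, therefore rests on reads in less than the whole model in every piglet, and the share covered was alike in the genotypes. For *TNXB*, ENSSSCT00000027572 was covered over 98.5% to 99.6%, ENSSSCT00000034199 over 80.6% to 96.6%, and ENSSSCT00000025531 over 35.1% to 74.0%. Of the transcripts at least as dense as ENSSSCT00000025531, 2.52% to 6.42% had less. That comparison includes all denser transcripts, so it does not show a coverage unusual for this density.

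**Figure D5:**
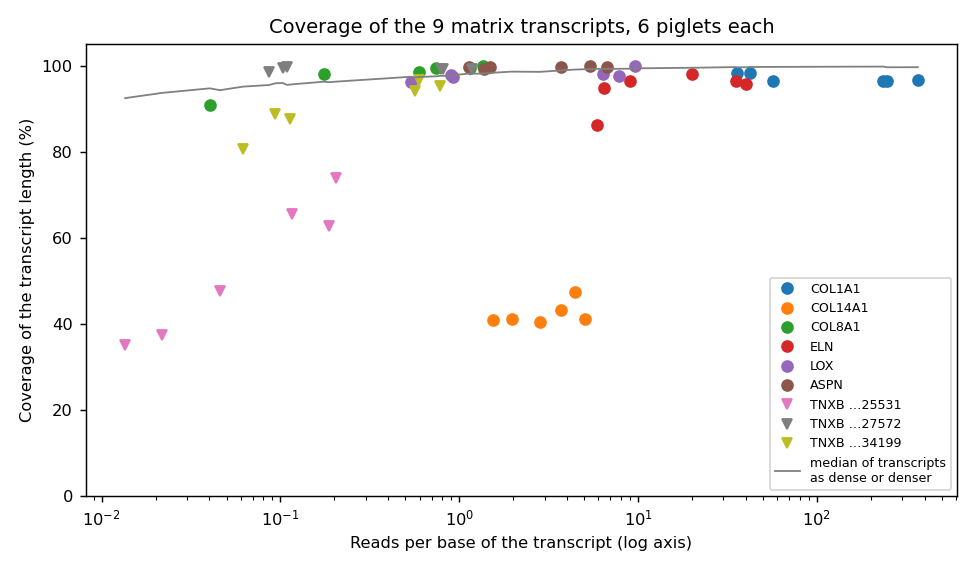
Share of the transcript length covered by reads (%) against reads per base (log axis) for the 9 transcripts in the 6 piglets, with the median coverage of all transcripts at least as dense as a grey line. COL14A1 lies at 40.4% to 47.4%, beside a median from 98.3% to 99.1% over the transcripts at least as dense.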

How the data were processed

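Values were taken from 1 table per piglet. The authors deposited the count of uniquely mapped reads per Ensembl transcript, its length, the coverage in percent of that length and the RPKM. The RPKM equalled the value recomputed from count, length and library total for 100% of the transcripts (relative tolerance 0.001). Reads were aligned with TopHat according to the article, which gives the build as Sscrofa11.1. The build in the submitters' processing notes is Sscrofa10.2, beside the tools TopHat, Bowtie2 and Cuffdiff, and neither the counting program nor its use of strand is given in the sources used here. A transcript not listed in a table was set to 0.

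Counts were fitted with edgeR 4.0.16 in R 4.3.3 (filterByExpr, TMM, glmQLFit and glmQLFTest, Benjamini-Hochberg adjustment over the 16645 transcripts tested), with genotype alone or with genotype and ST, which leaves 3 residual degrees of freedom. Standard errors were derived from the F values. DESeq2 1.42.0 was an alternative. The fits were also run on simulated counts with a biological coefficient of variation of 0.26 for all transcripts. All 9 transcripts had a higher value in the fit with genotype alone, so that run says little about them. The p-values set a difference against the spread between piglets that the fit leaves. In the fit with ST, wild-type piglet 3 and CNV/CNV piglet 1 each stand alone for their genotype and ST. That spread thus also assumes that the 2 terms add. The interaction term and the fit without wild-type piglets 1 and 2 were added after seeing the data. The genes, lists and tests were chosen with earlier results of these data known.

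Names and positions came from the study's list, which names 280 identifiers, 264 of them in the tables. The gene name and RefSeq tables matched 0 transcript identifiers. Genes named in the text are the 9 transcripts, TN-X, for each of the 9 the 2 named transcripts of nearest pattern, and up to 4 of the most abundant genes of each list. *ANGPTL7* and *KRT84* fall outside this rule and were named after their values were seen. The authors' own fold changes and p-values in that list were not used.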

Additional observations from a re-analysis of the deposited data

How the results depend on the processing

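The median log2 difference of the 9 transcripts between genotypes was from 0.78 to 2.76 when 1 piglet was left out, the highest without wild-type piglet 3, and 0.05 without both wild-type piglets with ST in the name. The number of all transcripts past an adjusted p of 0.05 between genotypes was 1 in edgeR (890 at an unadjusted p under 0.05), 28 in DESeq2, 3 with no filter on low counts, 2 with a second term for ST, 0 without both of these wild-type piglets (206 at an unadjusted p under 0.05), and from 0 to 6 when 1 piglet was left out. The number of the 9 that passed for ST was 7 with size factors of DESeq2, beside 185 of all transcripts. It was 7 with upper quartile scaling (224 of all) and with no filter (156 of all), and 8 in DESeq2 (1119 of all). When 1 piglet was left out it was from 0 to 7, beside from 1 to 442 of all. The 0 came without wild-type piglet 3, where 1 of all transcripts passed. Over all alternatives the adjusted p for ST reached 0.0560 for the *TNXB* transcript ENSSSCT00000027572, 0.0811 for *LOX*, 0.0974 for *ELN*, 0.105 for ENSSSCT00000034199, 0.108 for *ASPN*, 0.131 for *COL1A1*, 0.195 for ENSSSCT00000025531, 0.478 for *COL14A1* and 0.935 for *COL8A1*. No log2 difference for ST changed sign. With 6 piglets, ST and genotype can be told apart only through wild-type piglet 3 and CNV/CNV piglet 1. No paired analysis was possible because the labels give the piglets no shared replicate numbers.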
